A study of Homo sapiens with 2 samples.

Results

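The polyamine genes are 10 genes listed by their function: the synthesis enzymes ODC1, AMD1, SRM and SMS, the antizymes OAZ1 and OAZ2, the antizyme inhibitor AZIN1, and the catabolic enzymes SAT1, SMOX and PAOX. All 10 were found by symbol among the 60623 genes of the count tables. RNA was sequenced from OCI-AML3 cells, an established line from human acute myeloid leukaemia labelled wild type, grown in MEM alpha medium with serum. Omipalisib (GSK2126458) is an inhibitor of the phosphoinositide 3-kinases (PI3K) and mTOR. One culture received it at 50 nM for 24 h, and the control culture received its vehicle, DMSO, for the same time. There was 1 library per treatment, so no p-value is given and nothing is known of the spread between cultures. The comparison asks how messages for polyamine metabolism differed between the treated and the control culture.

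Polyamines (putrescine, spermidine and spermine) are small cations that bind RNA and DNA and are needed for growth. Ornithine decarboxylase makes putrescine, and spermidine and spermine synthase lengthen it with aminopropyl groups from decarboxylated S-adenosylmethionine. Antizymes bind ornithine decarboxylase and send it to the proteasome, and they are made only when the ribosome shifts frame, which polyamines promote. Acetylation by SAT1 followed by oxidation runs the path backwards. mTORC1 is also known to act on AMD1 at the protein level, which counts of RNA do not measure.

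In the omipalisib library the messages of the synthesis enzymes, the antizymes and the antizyme inhibitor were lower. Those of the measured catabolic enzymes were higher. ODC1 had the lowest ratio of the members, 1.90-fold lower than in DMSO. SRM and SMS were 1.32-fold and 1.24-fold lower, and AMD1 was 1.14-fold lower. Of the protein-coding genes within 2-fold of AMD1's mean level, 38.9% had a lower ratio than AMD1. SAT1 and SMOX were 1.37-fold and 1.30-fold higher. OAZ1, the most abundant member per length in both libraries, was 1.17-fold lower, OAZ2 was 1.30-fold lower and AZIN1 was 1.05-fold lower.

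The sequences at the antizyme frameshift are shown because they are what sets both antizyme genes apart from the other members: the same RNA is read either to an early stop or, after the shift, past it, and a count does not tell these apart. In release 29 of GENCODE (GRCh38) the annotated coding sequence of each leaves out the first base of an in-frame TGA. The stretches below run from 30 bases before that stop to 30 bases after it, 5′ to 3′ on the coding strand, with the stop in capitals. Apart from the left-out base they are annotated as coding in full, and they lie at chr19:2271413-2271475 (plus strand, OAZ1) and chr15:64691483-64691545 (minus strand, OAZ2).
OAZ1: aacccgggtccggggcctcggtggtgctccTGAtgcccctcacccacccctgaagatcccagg
OAZ2: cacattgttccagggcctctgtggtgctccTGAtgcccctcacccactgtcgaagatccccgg
Of the 63 bases, 51 were identical between the genes, including an unbroken run of 27 through the stop. The stop follows 68 codons in OAZ1 and 32 in OAZ2, and the shifted frame then runs on for 160 and 157 codons.

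The libraries held 26367832 counted fragments in DMSO and 22599164 in omipalisib, and 15660 genes passed a minimum of 20 counts over both. The median log2 ratio of these genes was 0.0029. The scaling between libraries brings this centre near 0 by design, so the value is no check of it. Each ratio is therefore relative to the bulk of genes, and RNA per cell was not measured. The 10 polyamine genes took 0.183% of the fragments in DMSO and 0.159% in omipalisib. Of 10 myeloid markers, 8 reached 1 CPM (a count relative to the scaled library size) in DMSO and 9 in omipalisib, with summed levels of 1465 and 1621 CPM. Single markers moved apart within that sum: CSF1R went from 32.2 to 101 CPM and CD14 from 2.04 to 9.62 CPM, while LYZ went from 321 to 246 CPM and MPO from 2.35 to 1.57 CPM. None of the erythroid markers reported here reached 1 CPM, and HBB, ALAS2 and KLF1 were at 0 in both. Of 6 lymphoid markers, 1 reached it in each library, with sums of 3.01 and 3.18 CPM, and CD3E, CD3D and MS4A1 were at 0 in both. Of 7 stromal, epithelial and endothelial markers, 2 reached it in each library, and the list summed to 112 and 96.9 CPM. These were COL1A2, at 96.7 and 68.0 CPM, and PECAM1, at 14.7 and 27.9 CPM. The part of these markers in the differences below was not tested, and in bulk RNA fewer cells of a type and less RNA per cell cannot be told apart.

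Levels per exonic length, in TPM (counts divided by exonic length and scaled to 1 total per library), set the members in an order that spanned more than the treatment did. In DMSO, OAZ1 stood highest at 755 TPM (95% exact Poisson interval 745 to 766). SRM followed at 265 TPM (256 to 273), ODC1 at 240.0 TPM (233 to 247) and AZIN1 at 177 TPM (173 to 181). SMS had 101 TPM (96.3 to 106) and AMD1 80.9 TPM (78.9 to 82.9). The intervals of neighbours in this order overlapped only for SAT1, at 43.2 TPM (40.3 to 46.3), and OAZ2, at 39.0 TPM (37.4 to 40.6). SMOX had 18.7 TPM (16.9 to 20.5) and PAOX 0.407 TPM (0.164 to 0.839). In omipalisib the order was the same except that ODC1, at 131 TPM (126 to 137), stood below AZIN1, at 175 TPM (171 to 179). All these intervals cover counting error only, no molecular identifiers are recorded, so reads need not be independent molecules, and the exonic length joins the exons of all annotated isoforms, so isoform use also enters a level.

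**Figure D1:**
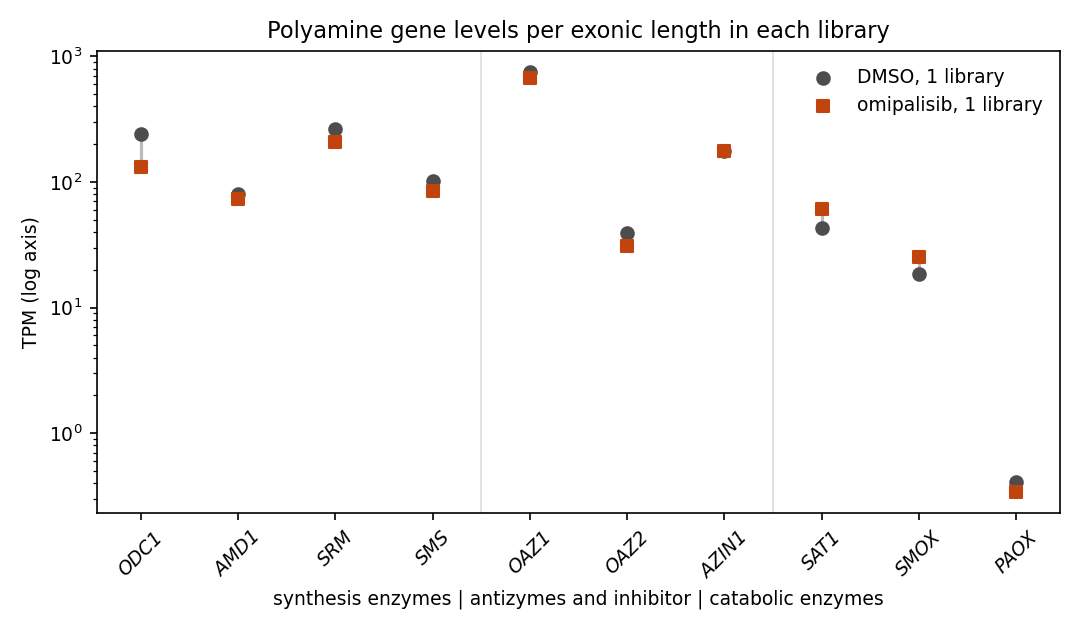
Level of each polyamine gene in TPM (log axis) in the DMSO library (circles) and the omipalisib library (squares), 1 library each, joined by a grey line. OAZ1 is highest in both at 755 and 670 TPM, ODC1 has the longest line among the synthesis enzymes, and SAT1 and SMOX are higher in omipalisib.

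Among the synthesis enzymes, ODC1 (ornithine decarboxylase, the committed step, chr2:10439968-10448327) had 5120 counts in DMSO and 2394 in omipalisib, or 197 and 104 CPM. Its log2 ratio of omipalisib over DMSO was −0.92, with a 95% counting interval of −0.99 to −0.85. Of the measured genes, 2.03% had a lower ratio. Among the 2714 protein-coding genes within 2-fold of its mean level, 16 had a lower ratio, and their median was −0.10. ODC1 was the 1 member at least 1.5-fold lower with an interval that excluded 0, a class that held 4.76% of all measured genes. No member was at least 1.5-fold higher, against 9.58% of all measured genes. At a lower limit, a log2 ratio of 0.32 either way, ODC1, OAZ2 and SRM were lower and SAT1 and SMOX higher, against 14.1% and 16.8% of all measured genes. At a limit of 2-fold no member was lower or higher, against 1.29% and 4.02%.

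SRM (spermidine synthase, chr1:11054584-11060020) had 3830 and 2580 counts, or 148 and 112 CPM, a log2 ratio of −0.40 (−0.47 to −0.32). SMS (spermine synthase, chrX:21940709-21994837) had 1568 and 1121 counts, or 60.5 and 48.8 CPM, a log2 ratio of −0.31 (−0.42 to −0.20). Both synthases were lower. The ratio of SRM to SMS in omipalisib was 0.942 of that in DMSO, with an interval that included 1 (0.859 to 1.03). AMD1 (S-adenosylmethionine decarboxylase, which makes the donor of the aminopropyl group, chr6:110874770-110898879) had 6303 and 4893 counts, or 243 and 213 CPM, a log2 ratio of −0.19 (−0.25 to −0.14). It stood nearer to the median of genes at its level, −0.12, than the other synthesis genes stood to theirs. Over the 4 enzymes together, counts went from 16821 to 10988, a log2 ratio of −0.44 (−0.48 to −0.41).

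The regulators of ornithine decarboxylase differed less than ODC1. OAZ1 (chr19:2269509-2273490) had 19833 and 15013 counts, or 765 and 653 CPM, a log2 ratio of −0.23 (−0.26 to −0.20). OAZ2 (chr15:64687573-64703281) had 2287 and 1562 counts, or 88.2 and 68.0 CPM, a log2 ratio of −0.38 (−0.47 to −0.28). Both antizymes were lower, and the ratio of OAZ1 to OAZ2 in omipalisib was 1.11 times that in DMSO (1.04 to 1.19). AZIN1, an inactive relative of ornithine decarboxylase that binds antizyme and so spares the enzyme (chr8:102826308-102893864), had 8022 and 6778 counts, or 309 and 295 CPM. Its log2 ratio was −0.07 (−0.12 to −0.02), and the interval included 0 with scaling by total counts (−0.02) and by protein-coding genes alone (−0.04). AZIN1 is the member whose 2 libraries lay closest together.

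Among the catabolic enzymes, SAT1 (spermidine/spermine acetyltransferase, chrX:23783173-23786226) had 825 counts in DMSO and 999 in omipalisib, or 31.8 and 43.5 CPM. Its log2 ratio was 0.45 (0.32 to 0.58), and 92.3% of the 4520 protein-coding genes within 2-fold of its level had a lower ratio. SMOX (spermine oxidase, which turns spermine back to spermidine, chr20:4120980-4187747) had 420 and 483 counts, or 16.2 and 21.0 CPM, a log2 ratio of 0.38 (0.18 to 0.57). Both were higher, although the omipalisib library was the shallower of the 2, so their raw counts as well as their scaled levels were higher. PAOX, the peroxisomal oxidase of acetylated polyamines (chr10:133379261-133391694), had 7 and 5 counts, under the minimum of 20. Its log2 ratio was −0.27 with an interval of −2.31 to 1.56, so no difference was detectable at this depth. Of its exonic length, 61.0% is shared on the same strand with AL360181.3, which had 89 and 88 counts, and fragments in the shared part are assigned to neither gene.

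Of the 9 members that passed the minimum, 7 had an interval below 0 and 2 above 0. The same was true of 28.6% and 26.1% of all measured genes. The median log2 ratio of the 9 was −0.23, against 0.0029 over all measured genes and −0.03 over the 12260 measured protein-coding genes. Protein-coding genes within 2-fold of a measured member's level had medians from −0.12 (AZIN1) to −0.0055 (SMOX). Of these genes, 56.6% had a lower ratio than AZIN1, 38.9% than AMD1 and 31.6% than OAZ1. The share was 18.6% for SMS, 14.1% for OAZ2, 12.4% for SRM and 85.0% for SMOX. The ratios ran from −0.92 for ODC1 to 0.45 for SAT1. Of the members that did not reach the 1.5-fold limit, a log2 ratio of 0.58 either way, SAT1 came nearest on the higher side and SRM on the lower side.

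**Figure D2:**
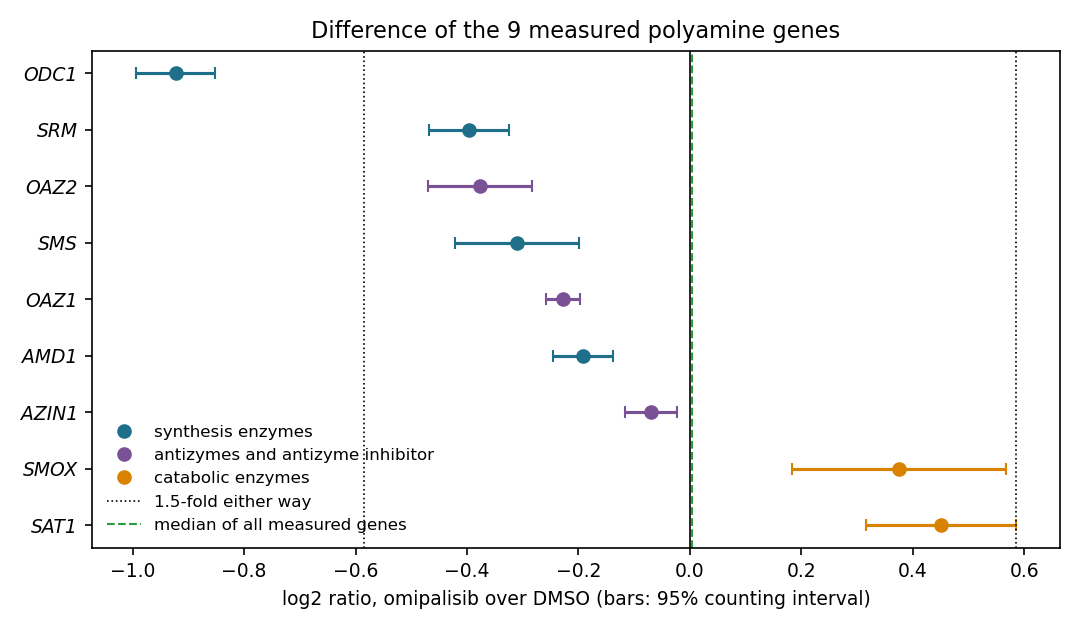
Log2 ratio of omipalisib over DMSO for the 9 measured polyamine genes with 95% counting intervals, coloured by role; dotted lines mark 1.5-fold and the dashed line the median of all measured genes. ODC1 at −0.92 lies beyond the dotted line, 6 further genes lie between −0.40 and −0.07, and SMOX and SAT1 lie at 0.38 and 0.45.

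The balance between members within a library does not depend on how libraries are scaled to each other. The 9 pairs described here were chosen after the values were seen. Per exonic length, OAZ1 stood at 3.15 times ODC1 in DMSO and 5.09 times in omipalisib, a 1.62-fold higher ratio (1.53 to 1.71). AZIN1 stood at 0.737 of ODC1 in DMSO and 1.33 in omipalisib, 1.81-fold higher (1.70 to 1.92). Messages for both the inhibitor of the enzyme and the inhibitor of that inhibitor were therefore more abundant relative to the enzyme's own. Neither was higher in itself, with log2 ratios of −0.23 for OAZ1 and −0.07 for AZIN1. Of all measured genes, 2.03% had a lower ratio than ODC1, so most genes rose relative to it. Between these regulators, OAZ1 to AZIN1 was 0.896 of its ratio in DMSO (0.862 to 0.931).

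The widest shifts were those of the catabolic enzymes against ODC1. SAT1 stood at 0.180 of ODC1 in DMSO and 0.466 in omipalisib, 2.59-fold higher (2.33 to 2.88). SMOX to ODC1 was 2.46-fold higher (2.13 to 2.83). These 2 shifts join a lower ODC1 and a higher partner, as the values above show. Where ODC1 is not in the pair, SAT1 to SMS was 1.69-fold higher (1.5 to 1.91). AMD1 to ODC1 was 1.66-fold higher (1.56 to 1.77), so the synthesis enzymes did not keep 1 proportion among themselves.

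**Figure D3:**
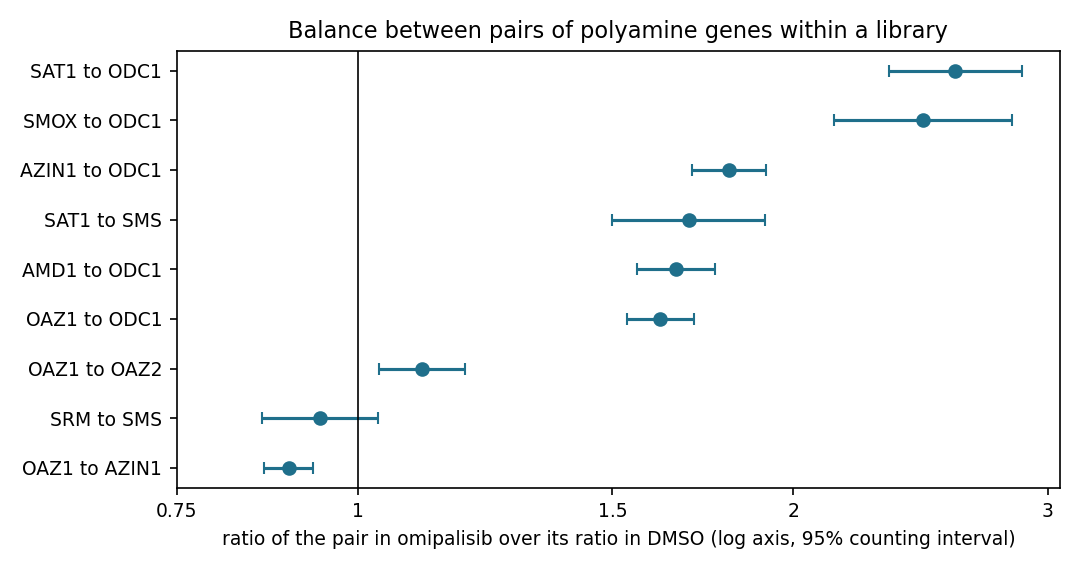
For 9 pairs of polyamine genes, the ratio of the pair's counts in omipalisib over the same ratio in DMSO (log axis), with 95% exact conditional intervals that cover counting error only. SAT1 to ODC1 is highest at 2.59 and OAZ1 to AZIN1 lowest at 0.896, and the interval of SRM to SMS includes 1.

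Promoter letters are shown for ODC1 and SRM because, among the members with listed start sites, only their windows held the E-box CACGTG. This is the binding motif of MYC, of which both genes are textbook targets. A part of MYC in their ratios was not tested. RefSeq's table of start sites (GRCh38.p14) held 10 windows for 7 of the members (ODC1, OAZ1, OAZ2, AMD1, SRM, SMS and SAT1), and AZIN1, PAOX and SMOX had no entry. In the part of each window before the start (250 bases), on either strand, CACGTG was found for ODC1 and SRM, in 2 of the 10 windows, against 6.34% of all 35116 windows of that length. In the stretches below, 5′ to 3′ on the gene's strand, the capitals mark CACGTG.
ODC1: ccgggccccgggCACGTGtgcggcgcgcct
SRM: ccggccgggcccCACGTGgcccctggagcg
The ODC1 stretch is chr2:10448024-10448053 (minus strand), with the motif starting 29 bases before the downstream of its 2 listed starts. This stretch lies within the gene as read from the upstream start, chr2:10448327, whose own window held no CACGTG. The SRM stretch is chr1:11060200-11060229 (minus strand), with the motif starting 199 bases before the start. Neither overlaps an annotated exon.

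Other motifs were searched in the same windows. The GC box GGGCGG was in 9 of the 10 windows, for 6 genes, and in 42.6% of all windows. The AMD1 windows with starts at chr6:110874784 and chr6:110874785 overlap and hold the same GC box, so the 10 windows are not separate promoters. CCAAT was in 5 windows, for OAZ1, AMD1, SRM, SMS and SAT1, and in 32.0% of all. CACGCG was in 1 window of ODC1 and in 9.72% of all, and TGACGTC in 1 window of ODC1 and in 3.12% of all. TATAAA and TGACGTCA were in none of the 10, and in 10.7% and 1.65% of all. TGACGTC is part of TGACGTCA, so these searches overlap. A match says only that the letters are there, since binding was not measured.

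The genes whose levels in the 2 libraries lay closest to those of ODC1, by Euclidean distance in log2 CPM among protein-coding genes, were CDC20, TK1 and YARS1. CDC20, an activator of the anaphase-promoting complex, had 205 and 101 CPM, at a distance of 0.075. TK1, thymidine kinase, had 184 and 103 CPM (distance 0.10), and YARS1, tyrosyl-tRNA synthetase, had 187 and 112 CPM (distance 0.13). With 2 libraries, such likeness rests on 2 values per gene.

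Connected pathways were described over 6 lists: the supply of S-adenosylmethionine (SAM), methionine salvage, the supply of ornithine and arginine, eIF5A and its hypusination, polyamine transport, and other polyamine enzymes with the members' paralogs. Hypusine is made from spermidine on a lysine of the translation factor eIF5A. Of the 5 genes in this list, 4 had an interval below 0 and none above, against 28.6% and 26.1% of all measured genes, shares that also stand beside the list counts that follow. The median log2 ratio was −0.49. EIF5A itself (chr17:7306999-7312463) had 23793 and 15039 counts, or 918 and 654 CPM, a log2 ratio of −0.49 (−0.52 to −0.46). EIF5AL1, a near-identical copy of EIF5A, can share its reads, so both counts are uncertain. DOHH, the hydroxylase that completes hypusine (chr19:3490821-3500940), had 643 and 360 counts, giving a log2 ratio of −0.66 (−0.85 to −0.47). It was the 1 gene of the list at least 1.5-fold lower, as were 4.76% of all measured genes. The fifth gene, DHPS, had a log2 ratio of 0.06 with an interval that included 0 (−0.21 to 0.32). Of its exonic length, 38.8% is shared on the same strand with AC010422.8, which had 277 and 333 counts. Fragments in that shared part are assigned to neither gene.

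Of 9 listed genes that supply ornithine or arginine, 6 were measured and these 6 had an interval below 0 (28.6% of all measured genes), with a median log2 ratio of −0.26. ARG2, the mitochondrial arginase that makes ornithine from arginine (chr14:67619920-67651708), had 58 and 24 counts, giving a log2 ratio of −1.08 (−1.85 to −0.39), and was the 1 gene of the list at least 1.5-fold lower, as were 4.76% of all measured genes. ARG1, the cytosolic arginase, was at 0 in both libraries. SLC7A1, the cationic amino acid transporter with the most counts of the list (chr13:29509414-29595688), had 6645 and 5279 counts, giving a log2 ratio of −0.16 (−0.21 to −0.11).

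Genes of the SAM supply lay on both sides of 0. Of its 5 measured genes of 6, 3 had an interval above 0, 1 below 0 and 1 that included it, with a median of 0.07 and ratios from −0.20 to 0.13. The 3 above 0 became 1, MAT2A, with DESeq2 size factors and 2 with the length trend removed. MAT2A, the methionine adenosyltransferase of most tissues (chr2:85539168-85545281), had 16110 and 15670 counts, or 621 and 682 CPM, a log2 ratio of 0.13 (0.10 to 0.17). Methionine salvage recycles methylthioadenosine, the by-product of spermidine and spermine synthesis. Of its 5 genes, 4 had an interval below 0 and 1 above, with a median of −0.27 and ratios from −0.49 to 0.19. MTAP, the phosphorylase that opens this path (chr9:21802636-21937651), was expressed, with 4746 and 3980 counts, giving a log2 ratio of −0.08 (−0.14 to −0.02), or −0.18 with a trend with gene length removed. The interval included 0 with scaling by total counts (−0.03) or by protein-coding genes alone (−0.05).

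Of 11 listed transport genes 4 were measured, 1 with an interval above 0 and 3 below, and their median was −0.27. ATP13A3, a P5-type ATPase linked to polyamine uptake and the most counted of the list (chr3:194402672-194498364), had 8278 and 7759 counts, giving a log2 ratio of 0.08 (0.04 to 0.13). The interval included 0 with DESeq2 size factors (0.04), and the sign turned, to −0.0075, with the length trend removed. SLC12A8, listed as a candidate polyamine transporter (chr3:125082636-125212864), had only 41 and 15 counts, giving a log2 ratio of −1.25 (−2.24 to −0.39). It was the 1 transport gene at least 1.5-fold lower, as were 4.76% of all measured genes. All 5 measured genes of the last list, out of 7, had intervals that included 0, with a median of 0.09. Its most counted gene, AGMAT, the agmatinase homologue (chr1:15571699-15585051), had 330 and 277 counts, giving a log2 ratio of −0.08 (−0.31 to 0.16).

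**Figure D4:**
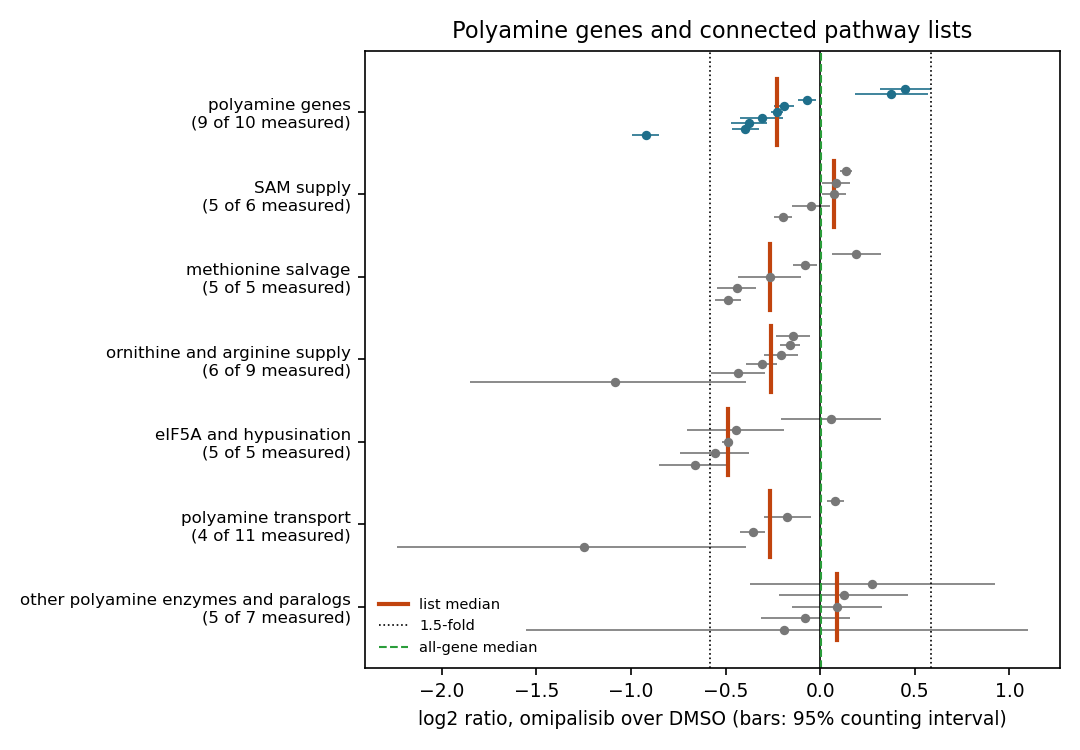
Log2 ratio of omipalisib over DMSO for the measured genes of the polyamine list (blue) and 6 connected lists (grey), with 95% counting intervals, list medians (orange bars), 1.5-fold limits (dotted) and the median of all measured genes (dashed). The eIF5A list has the lowest median at −0.49, and the SAM supply list (0.07) and the paralog list (0.09) have medians above 0.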

How the data were processed

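The authors deposited 1 table of raw, whole-number counts for each library. Per the file headers, featureCounts 2.0.1 counted read pairs over exons grouped by gene, with both ends aligned and the reverse-strand setting (2). The sources used here do not give the aligner. No option for fragments that align to several places is in the header, and the tool by default leaves them out. Of the members, AMD1, SRM, OAZ1 and SMS have 9 named processed pseudogenes between them, which held 2 counts in each library; fragments shared with these copies would be missing. The submitters' processing notes name hg19 and GRCh37, but of the 58516 genes found in GENCODE release 29, 58476 overlap that release's position on GRCh38, so coordinates are given as GRCh38. Symbols came from the supplied name table and that release (58584 genes).

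Libraries were scaled with TMM factors (edgeR 4.0.16 in R 4.3.3), 0.983 for DMSO and 1.02 for omipalisib. Log2 ratios add 0.5 to each count. Their 95% intervals are exact Clopper-Pearson intervals of the share that omipalisib has in both counts, and those of pairs are exact conditional intervals of the odds ratio (scipy 1.17.1). Both cover counting error only. A gene was called where both counts summed to 20 or more, the fold was 1.5 or more in either direction and the interval excluded 1. With 1 library per group no model was fitted. A count of 3 corresponds to 0.116 CPM in DMSO and 0.131 CPM in omipalisib. The procedure was tested on simulated counts. TPM were computed from the counts and the exonic lengths in the files.

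Named genes were all 10 members, and of each list the genes called and the one with the most counts; for ODC1 also the 3 nearest protein-coding genes. Other genes are named only as markers, as copies or overlaps, or for being at 0. The members and lists were chosen with earlier results of these data known. Alternatives were 4 other scalings (one with DESeq2 1.42.0 size factors), other offsets, count minimums and folds, thinning of the deeper library, and removal of a trend with gene length.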

Additional observations from a re-analysis of the deposited data

How the results depend on the processing

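No paired analysis was possible because each treatment has 1 library. Under the 10 alternatives that change scaling, offset, minimum count, depth or length trend, each of the 9 measured polyamine genes kept its sign, and ODC1 ranged from −0.96 to −0.87. ODC1 was the called member in all 10. The counts of calls moved with the call rule and, over all genes, with the scaling: 599 lower and 1720 higher with total counts, and 907 and 1357 with DESeq2 size factors, against 746 and 1501. With a log2 limit of 0.32, 3 polyamine genes were lower (ODC1, OAZ2 and SRM) and 2 higher (SAT1 and SMOX), against 2213 and 2627 of all genes. With a fold of 2, 0 polyamine genes were lower and 0 higher, against 202 and 629. With no minimum fold, 7 were lower and 2 higher, against 4486 and 4084. With a minimum summed count of 200, 444 of all genes were lower and 757 higher, fewer because fewer genes were tested. The median of the transport list was −0.047 without a minimum count, where genes of a few counts enter it. The sign turned for 2 genes: ATP13A3, to −0.0075 with the length trend removed, and DHPS, whose interval included 0 throughout, from 0.059 to −0.017 with the DMSO library thinned; the cause was not tested. Of the 386 values of single genes under alternatives, 369 stayed within their counting interval (DHPS included), and the other 17 moved beyond it, ATP13A3 among them. Depth limits PAOX most, with 12 counts in all, and the spread between cultures is unknown for every gene.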
